A study of Mus musculus with 6 samples.

Results

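Trem1, Cd14, Clec4e and Clec7a are the genes of 4 receptors with which myeloid cells sense microbes, damaged cells and inflammation. They were taken by gene symbol from the 5301 genes that the 3 deposited matrices hold together. All 4 were present in the micrometastasis matrix (of 2669 genes) and in the macrometastasis matrix (of 2643). Cd14, Clec4e and Clec7a were also in the adjacent tissue matrix (of 4486), and Trem1 in adjacent tissue was not analysed here. Single-cell RNA-seq with 10x Genomics 3′ chemistry had been run on CD45+ cells sorted from the liver of Balb/c mice injected with 4T07 mammary tumour cells, a mouse line, into the left heart ventricle. The injected cells were control cells (Ctrl) or cells in which Tim3, the gene of an immune checkpoint receptor, was knocked down with a short hairpin RNA (Tim3-KD). There were 6 libraries, 1 for each combination of cell line and site: adjacent tissue without visible tumour at day 3, micrometastasis at day 3 and macrometastasis at day 12. Both lines of mice carried tumour cells, also in adjacent tissue, so no library came from a liver of an uninjected mouse, and the age of the mice was not given in the sources used here. The immune cells themselves were not targeted, and the tumour cells that carried the knockdown were outside the sort, so the knockdown could not be checked in these libraries. Each library pooled 2 mice, and no group had a further library. No p-value is therefore given, and every interval is a 95% counting interval that leaves out the spread between mice.

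Each receptor starts a signal in its own way. TREM1 (triggering receptor expressed on myeloid cells 1) is an immunoglobulin-like receptor without a signalling tail that acts through the adaptor DAP12 (Tyrobp) and amplifies inflammatory responses of neutrophils and monocytes. Mincle (Clec4e) is a C-type lectin that binds glycolipids and a protein of dying cells and acts through the Fc receptor gamma chain (Fcer1g). Dectin-1 (Clec7a) is a C-type lectin for beta-glucan of fungi with a signalling motif in its own tail. Mincle and Dectin-1 share the kinase Syk and the adaptor Card9. CD14 is held to the membrane by a lipid anchor, collects lipopolysaccharide and hands it to TLR4 and MD-2 (Ly96). It is a common marker of monocytes and macrophages and is found on neutrophils as well. The liver holds its own macrophages, the Kupffer cells, and neutrophils and monocytes that arrive from the blood.

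Trem1 lies on chromosome 17 (48232768 to 48246924, plus strand), Clec4e on chromosome 6 (123281789 to 123289870, minus strand) and Clec7a also on chromosome 6 (129461591 to 129472779, minus strand), in GRCm38 coordinates. Their promoters are shown as sequence context, and no link between sequence and level was tested. The promoter of Cd14 is not shown. The sequences are the 250 bases before each RefSeq start in the build GRCm38.p6, 5′ to 3′ on the strand of the gene. Their positions are chr17:48232489-48232738 for Trem1, chr6:123289872-123290121 for Clec4e and chr6:129472780-129473029 for Clec7a. Capitals mark GAGGAA, a core of the myeloid factor PU.1, and TTNNGNAA, a loose form of the C/EBP motif, read on both strands, so that TTCCTC is GAGGAA on the other strand.
Trem1: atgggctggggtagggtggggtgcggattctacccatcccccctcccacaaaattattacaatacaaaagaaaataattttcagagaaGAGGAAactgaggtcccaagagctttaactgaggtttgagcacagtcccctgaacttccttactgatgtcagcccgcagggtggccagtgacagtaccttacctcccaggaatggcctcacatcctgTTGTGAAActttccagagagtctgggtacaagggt
Clec4e: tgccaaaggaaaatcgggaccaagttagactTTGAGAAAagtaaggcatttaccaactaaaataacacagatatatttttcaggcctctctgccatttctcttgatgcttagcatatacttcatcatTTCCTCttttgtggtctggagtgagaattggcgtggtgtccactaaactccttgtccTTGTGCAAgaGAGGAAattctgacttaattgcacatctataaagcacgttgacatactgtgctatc
Clec7a: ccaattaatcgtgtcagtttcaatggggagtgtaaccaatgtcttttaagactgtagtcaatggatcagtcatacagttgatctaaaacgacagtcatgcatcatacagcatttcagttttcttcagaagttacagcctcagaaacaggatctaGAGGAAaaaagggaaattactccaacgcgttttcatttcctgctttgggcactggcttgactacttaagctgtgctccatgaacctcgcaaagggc
GAGGAA had 1 match in Trem1, 162 bases before the start, and 2 in Clec4e, at 123 bases (minus strand) and at 56 bases. In Clec7a it stood 96 bases before the start. Of the promoters of this length in the table (32851), 23.3% held it. TTNNGNAA stood 35 bases before the start of Trem1 and 219 and 66 bases before that of Clec4e, and had no match in Clec7a. It was found in 36.8% of all promoters. TGANTCA, an AP-1 motif, had no match in the 3 windows against 6.75% of all promoters. TTCNNNGAA, a STAT motif that reads alike on both strands, matched in Trem1, 171 bases before the start, and in 7.02% of all promoters. No 2 of these matches overlap. These are matches of letters in a window and do not show that a factor binds there. The motifs were chosen with the letters in view.

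The libraries held 1803 cells from adjacent tissue Ctrl, 542 from adjacent tissue Tim3-KD, 5106 and 5142 from micrometastasis (Ctrl and Tim3-KD), and 4913 and 5502 from macrometastasis. Median depths ran from 6300.0 to 10248 unique molecular identifiers (UMIs) per cell. Levels are given as CPM, the UMIs of a gene divided by the UMIs of all genes in the same cells and scaled to the same total in every library. The 26 clusters were made without the 4 receptors and their pathway genes, and all but 2 are called here by a class named from marker genes. Cluster 6, led by Ltf, Ly6g and Cd177, is called the Ltf/Ly6g cluster. Cluster 24 is called by its number, since Pf4, Scd1 and Lepr led it, with the hepatocyte genes Alb and Fgb also among its top 10 genes. Of the sorted cells, 2.75% were endothelial-like and 0.365% in cluster 24. Pairs of libraries shared 0 to 11 barcodes. B-like cells, which should lack all 4 receptors, were taken as a measure of background. They reached 2.65 to 24.4 CPM of Cd14 and 3.14 to 15.3 CPM of Clec7a over the 6 libraries. Their Clec4e stood at 1.33 to 13.6 CPM in 5 of these libraries and at 53.4 CPM in micrometastasis Tim3-KD. Their Trem1 was between 4.32 and 11.9 CPM in 3 libraries and 34.6 CPM in micrometastasis Tim3-KD, the library with 70 B-like cells and 11 such UMIs. T-like cells of that library (362 cells) had 11.8 CPM of Trem1, 21.0 CPM of Cd14, 21.0 CPM of Clec4e and 12.8 CPM of Clec7a, so Trem1 and Clec4e were lower in T-like than in B-like cells there, with intervals that did not overlap for Clec4e.

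Trem1 and Clec4e were above all genes of neutrophils, Cd14 was spread over the whole myeloid compartment, and Clec7a was shared between neutrophils, macrophages and monocytes. In micrometastasis Ctrl, Trem1 reached 1535 CPM in mature neutrophil-like cells, 678 in the Ltf/Ly6g cluster, 134 in monocyte-like, 97.8 in neutrophil precursor-like and 66.4 in lesion macrophage-like cells. Endothelial-like cells, which are not myeloid, had 98.2 CPM (65.3 to 142), and the part of background in levels of this size was not tested. The Trem1 level in Kupffer-like cells, 10.1 CPM, lay with that of T-like cells, 10.9 CPM, and these neighbours did not differ beyond counting error. Across the 4 libraries that hold it, Trem1 in mature neutrophil-like cells stood between 1226 and 1709 CPM. Clec4e was also highest in mature neutrophil-like cells, with lesion macrophage-like above neutrophil precursor-like cells. In micrometastasis Ctrl it was 1494 CPM in mature neutrophil-like cells, 465 in the Ltf/Ly6g cluster, 259 in monocyte-like, 197 in lesion macrophage-like and 107 in neutrophil precursor-like cells. Kupffer-like cells, at 10.1 CPM of Clec4e, did not rise above T-like or B-like cells. In adjacent tissue Tim3-KD no Clec4e UMI was left in any of 106 Kupffer-like cells after thinning to 1500 UMIs per cell, which by the exact binomial interval allows up to 3.42% of cells with a UMI at that depth. Without thinning 1 of the 106 cells had a Clec4e UMI.

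Within micrometastasis Ctrl, Clec7a was highest in lesion macrophage-like cells, a class marked by Trem2 and Spp1. There it reached 1031 CPM (95% interval 1002 to 1061), above the 513 CPM (499 to 527) of mature neutrophil-like and the 456 CPM (442 to 470.4) of monocyte-like cells. Kupffer-like cells had 253 CPM and dendritic cell-like cells 226 CPM, and their intervals overlapped. The Ltf/Ly6g cluster was far lower, at 58.0 CPM. Lesion macrophage-like cells also led in micrometastasis Tim3-KD, at 401 CPM (366 to 438). Elsewhere other classes led, among classes of at least 50 cells, with 1035 CPM in mature neutrophil-like cells of adjacent tissue Ctrl, 384 CPM in Kupffer-like cells of adjacent tissue Tim3-KD and 565 CPM in mature neutrophil-like cells of macrometastasis Tim3-KD. In macrometastasis Ctrl, monocyte-like cells were at 462 CPM, lesion macrophage-like cells at 396 and mature neutrophil-like cells at 337.

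Cd14 (chromosome 18, 36725067 to 36726798, minus strand, in GRCm38 coordinates) was present in every myeloid class. In micrometastasis Ctrl it was 2664 CPM in mature neutrophil-like, 1364 in lesion macrophage-like, 1334 in monocyte-like and 527 in Kupffer-like cells, and 1119 in the Ltf/Ly6g cluster. Lesion macrophage-like and monocyte-like cells did not differ beyond counting error. Neutrophil precursor-like cells had 289.7 CPM. B-like cells, at 10.5 CPM, and T-like cells, at 23.4 CPM, were far below each of these. Among classes of at least 50 cells, mature neutrophil-like cells led for Cd14 in 4 of 6 libraries. In adjacent tissue Tim3-KD the Kupffer-like cells led, at 311 CPM, and the 19 mature neutrophil-like cells had 840.4 CPM. In macrometastasis Ctrl cluster 24 (52 cells) had 3660.4 CPM of Cd14 (3502 to 3824) against 3128 CPM (3098 to 3159.5) in mature neutrophil-like cells, and its 30 cells in Tim3-KD had 4004 CPM.

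**Figure D1:**
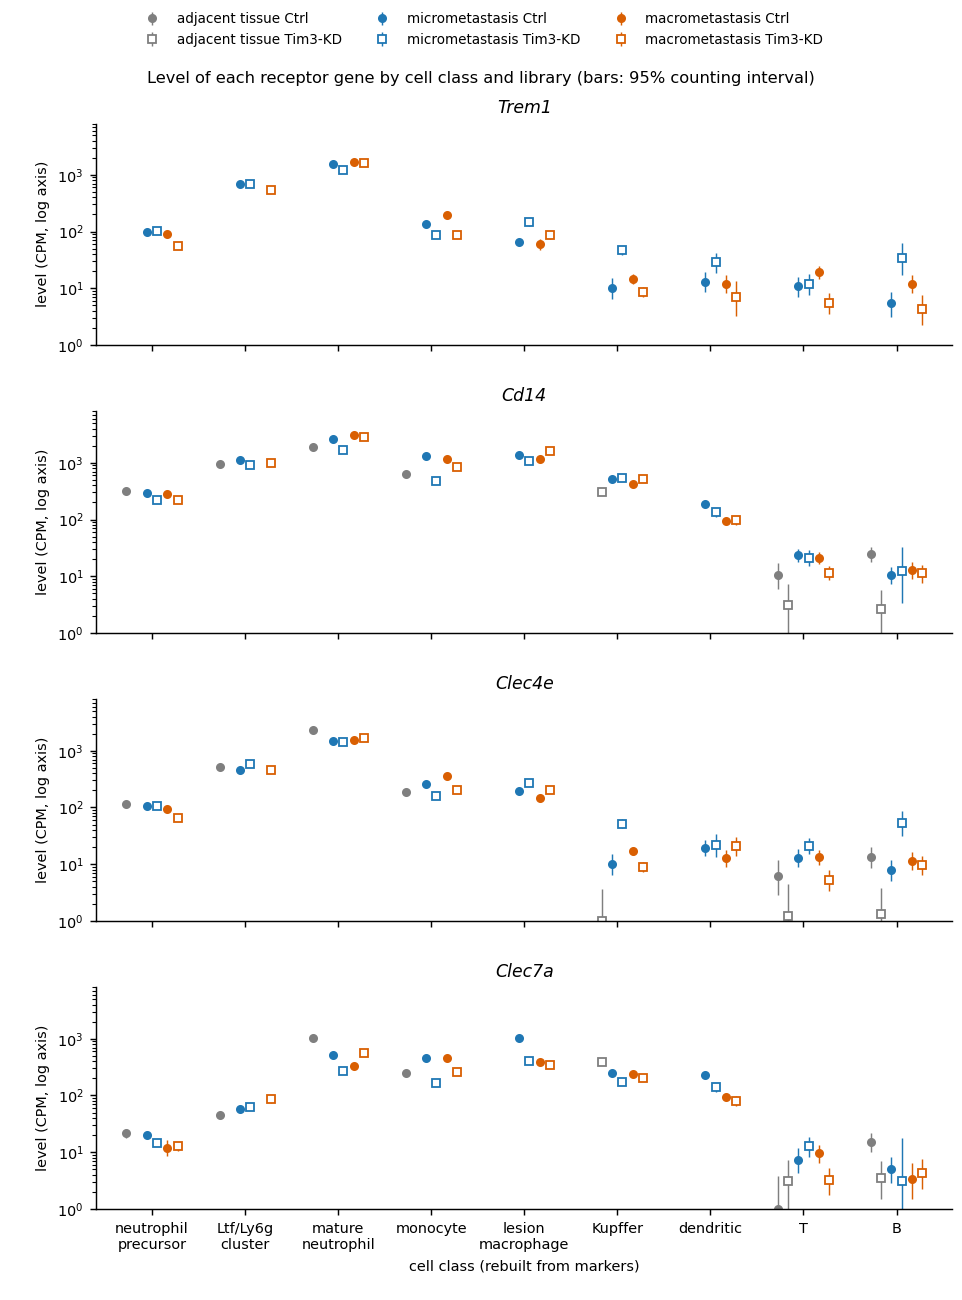
Level of each gene (CPM, log axis) by cell class, in libraries with at least 50 cells of the class. Filled circles are Ctrl, open squares Tim3-KD, colours the sites and bars 95% counting intervals, and values under 1 CPM are drawn at 1. Trem1 and Clec4e fall from above 1000 CPM in mature neutrophil-like cells to between 0.649 and 52.0 CPM in Kupffer-like cells, while Cd14 and Clec7a stay between 79.9 and 1581 CPM in monocyte-like, macrophage-like, Kupffer-like and dendritic cell-like cells.

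In micrometastasis Ctrl, Clec4e and Clec7a differed more between clusters 2 and 0, placed last in the neutrophil series, than Trem1 and Cd14 did. The series was set from marker genes and not computed, and whether cluster 0 follows cluster 2 was not tested. The clusters were placed by genes known from neutrophil maturation: cluster 16 with the primary granule genes Elane, Mpo and Prtn3, cluster 7 with Fcnb and Cebpe, the Ltf/Ly6g cluster 6, cluster 2 with Mmp8 and Stfa2, and cluster 0 with Il1b, Acod1 and G0s2. In micrometastasis Ctrl, Trem1 was 13.8 CPM in cluster 16, 142 in cluster 7, 678 in cluster 6, 1467 in cluster 2 and 1652 in cluster 0. Cluster 2 thus already held most of the level of cluster 0. Cd14 began higher and followed a like course, from 106, 387 and 1119 CPM to 2553 and 2837 CPM. Clec4e was still clearly higher at the last step, going from 26.0, 150.1 and 465 CPM to 1144 and then 2084 CPM. Clec7a had the largest fold between clusters 2 and 0. It was 6.56, 27.1 and 58.0 CPM in the first 3 clusters, 252 CPM in cluster 2 and 959 CPM in cluster 0. The same order of clusters was seen for Clec7a in adjacent tissue Ctrl, with 45.8 CPM in cluster 6, 325 in cluster 2 and 1404 in cluster 0. Cluster 1, led by Saa3 and Il1r2 and found almost entirely in macrometastasis, had 1704 CPM of Trem1, 3242 of Cd14 and 1528 of Clec4e in Ctrl, but 225 CPM of Clec7a. In the same library cluster 0 had 1299 CPM of Clec7a.

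**Figure D2:**
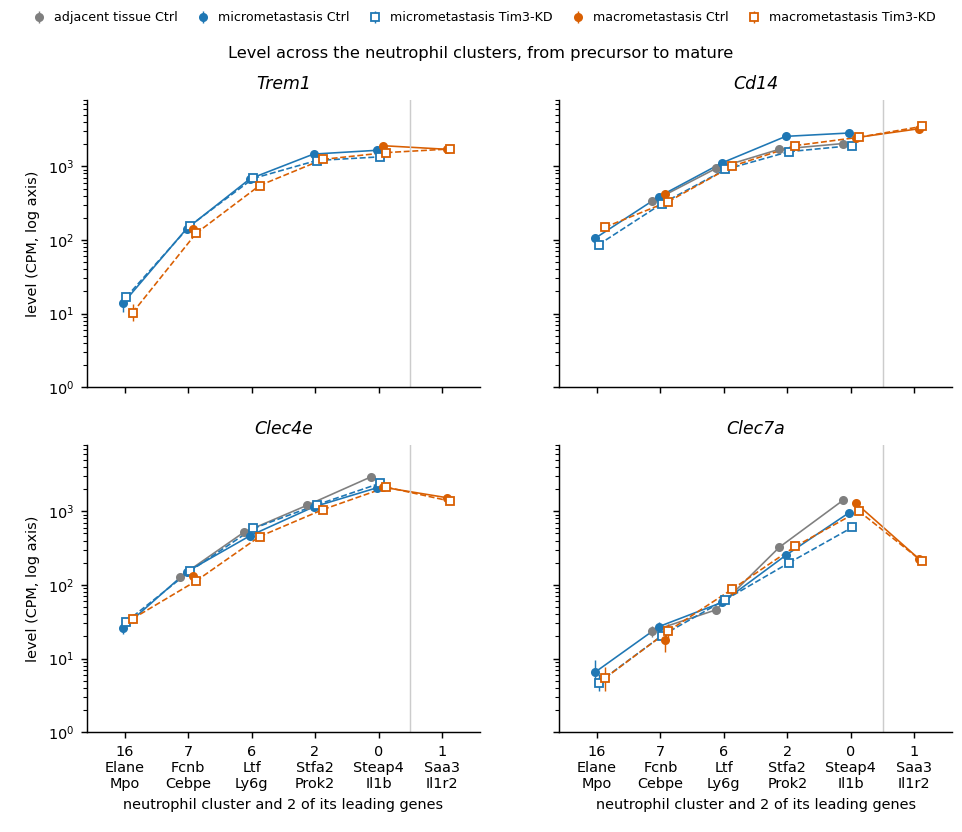
Level (CPM, log axis) in the neutrophil clusters, placed from precursor to mature by 2 leading genes under each number, with cluster 1, the cluster of macrometastasis, set apart to the right. Filled circles with solid lines are Ctrl, open squares with dashed lines Tim3-KD, and bars 95% counting intervals. Clec7a reaches 58.0 CPM in cluster 6 and 959 CPM in cluster 0 of micrometastasis Ctrl and stands at 225 CPM in cluster 1 of macrometastasis Ctrl.

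The classes held different shares of each gene's UMIs. Of all Trem1 UMIs, 73.2% came from mature neutrophil-like cells in micrometastasis Ctrl and 59.0% in Tim3-KD, and 92.3% and 90.0% in macrometastasis. The Ltf/Ly6g cluster held 14.2% of Trem1 UMIs in micrometastasis Ctrl and 23.2% in Tim3-KD, with 254 and 512 cells. For Clec4e the mature neutrophil-like share was 69.5% and 61.2% in micrometastasis and 89.2% and 85.6% in macrometastasis. For Cd14 it was 49.4% and 45.4%, and 75.1% and 66.4%. For Clec7a it was 34.7% and 44.6%, and 50% and 60.8%. The lesion macrophage-like class held 29.6% of Clec7a UMIs in micrometastasis Ctrl (419 cells) and 6.14% in Tim3-KD (139 cells). In adjacent tissue the Kupffer-like cells held 0.671% of Cd14 and 1.61% of Clec7a UMIs in Ctrl (31 of 1803 cells) and 47.5% and 55.9% in Tim3-KD (106 of 542).

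**Figure D3:**
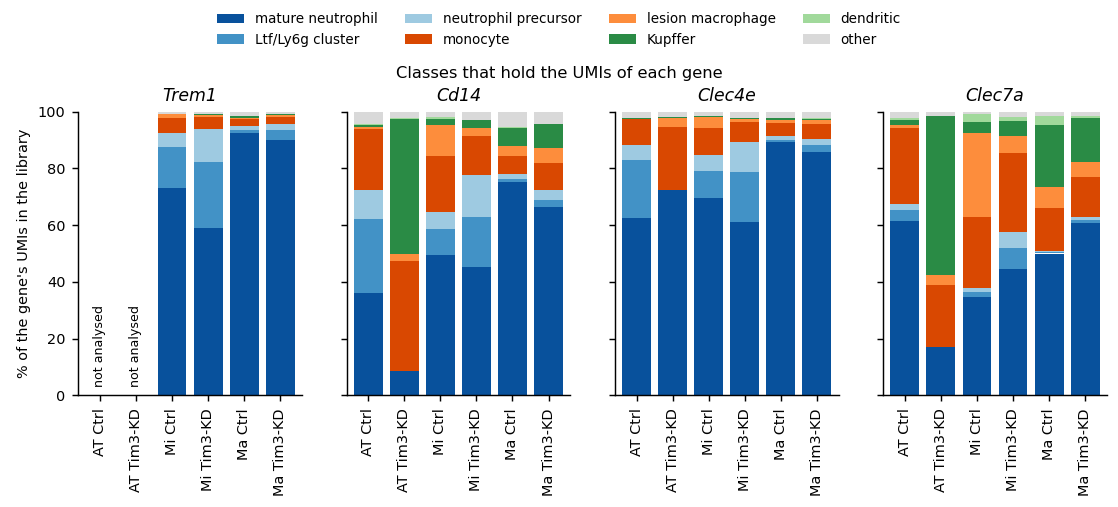
Share of each gene's UMIs (%) that each cell class holds, by library (AT, adjacent tissue; Mi, micrometastasis; Ma, macrometastasis). Mature neutrophil-like cells (dark blue) hold between 59.0% and 92.3% of Trem1 UMIs, and lesion macrophage-like cells (light orange) hold 29.6% of Clec7a UMIs in Mi Ctrl against 6.14% in Mi Tim3-KD.

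Cell by cell, Cd14, Trem1 and Clec4e were found in most mature neutrophil-like cells of micrometastasis, and Clec7a in fewer. After thinning every cell to 1500 UMIs, Cd14 was found in 90.6% of mature neutrophil-like cells of micrometastasis Ctrl, Trem1 in 83.1%, Clec4e in 81.3% and Clec7a in 44.9%. The thinned share of Clec7a was 73.1% in adjacent tissue Ctrl. Without thinning the shares were 97.7%, 97.0%, 98.0% and 76.3%, at a median depth of 5758 UMIs. In B-like cells of the same library (median 3484 UMIs) the thinned shares were 2.16%, 1.39%, 1.54% and 0.770%. In Tim3-KD micrometastasis 86.1%, 78.8%, 82.9% and 33.2% of mature neutrophil-like cells had a UMI of Cd14, Trem1, Clec4e and Clec7a, in the same order, and the B-like shares (median 4224 UMIs) were 1.43%, 5.71%, 1.43% and 1.43%. The Clec4e intervals of the Ctrl cells (79.2 to 83.3%) and the Tim3-KD cells (81.0 to 84.7%) overlapped, and those of Clec7a (42.3 to 47.5% and 30.9 to 35.5%) did not. The tenth of mature neutrophil-like cells with most thinned UMIs of Clec7a held 47.9% of them in micrometastasis Ctrl. The same share was 27.1% for Cd14, 28.9% for Trem1 and 31.1% for Clec4e. Such a share rises as a level falls, so uneven spread beyond the lower level of Clec7a was not tested. Clec7a went with Clec4e. It was detected in 47.6% of the mature neutrophil-like cells with a Clec4e UMI and in 33.2% of those without one in micrometastasis Ctrl, in 34.4% and 27.4% in Tim3-KD, in 31.3% and 19.4% in macrometastasis Ctrl and in 47.9% and 25.9% in macrometastasis Tim3-KD.

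Tim3-KD and Ctrl were compared to ask how myeloid sensing differs when the tumour cells carry less TIM3. In micrometastasis, Cd14 and Clec7a were lower with Tim3-KD over the whole library, while Trem1 and Clec4e were close to Ctrl. Clec7a was at 283 CPM (15861 UMIs) in Ctrl and 99.2 CPM (7935 UMIs) in Tim3-KD, which gives 0.350 as the ratio (95% interval 0.341 to 0.360). Cd14 was at 1033 and 589 CPM, a ratio of 0.570 (0.563 to 0.577). Trem1 was at 402 and 338 CPM (0.840, 0.826 to 0.855) and Clec4e at 412 and 382 CPM (0.928, 0.912 to 0.944). Thus 2 of 4 receptor genes were lower by at least 1.5-fold, where 37.5% of all genes with at least 100 UMIs were, and none was higher by that much, against 2.70% of all genes. The median gene itself had a ratio of 0.741 between these libraries, a log2 shift of -0.43. Relative to it Clec7a was at 0.473 and Cd14 at 0.769, and Trem1 and Clec4e lay above it, at 1.13 and 1.25. With every cell counted alike rather than by its UMIs, Clec4e was at 1.14, Trem1 at 0.998, Cd14 at 0.717 and Clec7a at 0.502, so that Cd14 was no longer past 1.5-fold on either of these scales. In a whole library, fewer cells of a type and less RNA per cell cannot be told apart, and levels within classes follow.

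Within micrometastasis classes, Cd14 and Clec7a were lower with Tim3-KD in mature neutrophil-like, monocyte-like and lesion macrophage-like cells, and Clec4e was not lower in the neutrophil clusters. In mature neutrophil-like cells (1481 Ctrl and 1644 Tim3-KD cells) Cd14 was 2664 CPM in Ctrl against 1646 in Tim3-KD (ratio 0.618, 0.607 to 0.629). Clec7a went from 513 to 273 CPM (0.531, 0.509 to 0.554). Trem1 went from 1535 to 1226 CPM (0.799, 0.782 to 0.816), and Clec4e from 1494 to 1439 CPM (0.964, 0.943 to 0.984). Of all genes in this class 11.8% were lower by at least 1.5-fold, as were Cd14 and Clec7a, and 4.67% were higher, as was none of the 4. With CPM taken over the genes of the matrix alone Cd14 was at 0.710, no longer past 1.5-fold, and Clec4e at 1.11, above 1. The class held fewer cells of cluster 0 in Tim3-KD (442 against 677) and more of cluster 2 (1191 against 795). Within these clusters the ratios of Clec7a were 0.631 (cluster 0) and 0.790 (cluster 2), and those of Cd14 were 0.675 and 0.620. Trem1 was at 0.815 and 0.818. Clec4e was above 1 in both, at 1.15 (1.11 to 1.19) and 1.07 (1.04 to 1.10), so its ratio just under 1 in the class went with the change in cluster numbers. In the Ltf/Ly6g cluster Cd14 was lower (0.810) and Clec4e higher (1.25), with Trem1 (1.01) and Clec7a (1.09) at intervals that include 1.

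Monocyte-like cells of micrometastasis had all 4 receptors lower by at least 1.5-fold in Tim3-KD, in a class in which 27.7% of genes were lower and 10.0% higher by that much. Cd14 went from 1334 to 484 CPM (0.362, 0.351 to 0.374), Clec7a from 456 to 166 CPM (0.364, 0.345 to 0.384), Clec4e from 259 to 160.0 CPM (0.618) and Trem1 from 134 to 88.2 CPM (0.659). Relative to the median gene of the class (0.857), Cd14 was at 0.423 and Clec7a at 0.425. Clec4e (0.722) and Trem1 (0.769) were no longer past 1.5-fold on that scale. The class was made of different clusters in the 2 libraries. Cluster 5, with Ccr2, Thbs1 and Vcan, had 599 Ctrl and 436 Tim3-KD cells, and cluster 10, with F13a1 and Ly6c2, had 93 and 371. In cluster 5 Cd14 and Clec7a were both at a ratio of 0.640, but Trem1 (1.37, 1.24 to 1.5) and Clec4e (1.27, 1.18 to 1.36) were higher in Tim3-KD, at 150.3 and 205 CPM and at 307 and 389 CPM. B-like cells of these libraries went from 5.42 to 34.6 CPM of Trem1 and from 7.98 to 53.4 CPM of Clec4e, T-like cells from 10.9 to 11.8 CPM and from 13 to 21.0 CPM, and the part of background in these higher values was not tested. In cluster 10 all 4 receptor genes were lower, with ratios of 0.411 for Cd14, 0.539 for Clec7a, 0.574 for Clec4e and 0.478 for Trem1. Cd14 and Clec7a were thus lower in both clusters, and Trem1 and Clec4e in cluster 10 alone. In Tim3-KD cluster 10 had 42.8 CPM of Trem1 and 73.1 CPM of Clec4e, against 205 and 389 CPM in cluster 5. It had 371 cells there in place of 93 in Ctrl. How much of the class ratios of Trem1 and Clec4e went with the cluster numbers was not tested.

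Lesion macrophage-like cells of micrometastasis had less Clec7a and Cd14 with Tim3-KD and more Trem1 and Clec4e. Clec7a was 1031 CPM in 419 Ctrl cells and 401 CPM in 139 Tim3-KD cells (0.389, 0.354 to 0.427), and its thinned share of cells was 65.2% and 36.7%. Cd14 was at 1364 and 1076 CPM (0.789, 0.743 to 0.838). Clec4e was higher, at 197 and 266 CPM (1.35, 1.19 to 1.54), and so was Trem1, at 66.4 and 147 CPM (2.21, 1.82 to 2.67). In this class 14.8% of genes were lower and 27.3% higher by at least 1.5-fold, Clec7a being among the former and Trem1 among the latter. The level of both higher genes in B-like cells moved in the same direction, from 5.42 to 34.6 CPM for Trem1 and from 7.98 to 53.4 CPM for Clec4e. In T-like cells Trem1 was at 10.9 and 11.8 CPM (1.09, 0.588 to 1.99) and Clec4e at 13 and 21.0 CPM (1.61, 0.982 to 2.67). The part of free RNA in the higher values was not tested. Kupffer-like cells had Cd14 at 527 and 528 CPM (1.00, 0.925 to 1.08) and Clec7a at 253 and 176 CPM (0.698, 0.614 to 0.792). Of their clusters, cluster 19 held 61 Ctrl and 3 Tim3-KD cells, and within cluster 3 (213 and 252 cells) Cd14 was at 588 and 529.9 CPM (0.901, 0.832 to 0.975). Their Trem1 (10.1 and 46.7 CPM) and Clec4e (10.1 and 52.0 CPM) lay near the B-like values in Tim3-KD and above the T-like values there, and near both in Ctrl, and whether they are background was not tested. Dendritic cell-like cells had less Clec7a in Tim3-KD (226 and 139 CPM, 0.616) and less Cd14 (188 and 134 CPM, 0.710). In neutrophil precursor-like cells Trem1 (1.03) and Clec4e (0.980) had intervals that include 1, and Cd14 (0.769) and Clec7a (0.714) were lower.

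**Figure D4:**
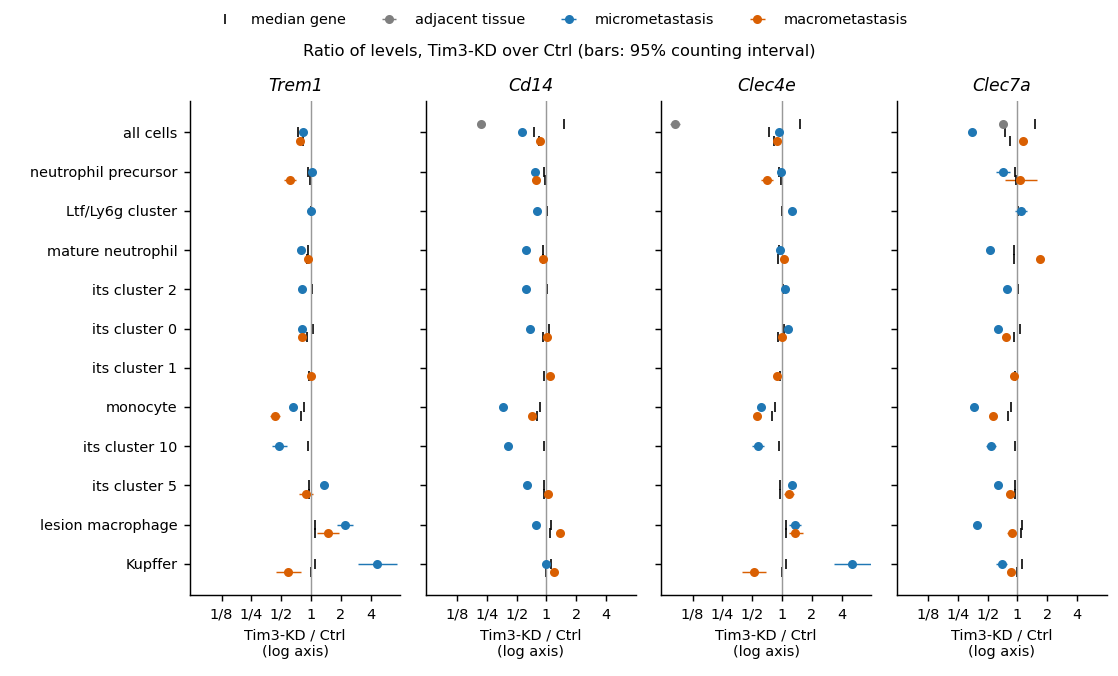
Ratio of levels, Tim3-KD over Ctrl (log axis), over all cells and within classes and their clusters with at least 50 cells in both libraries; bars are 95% counting intervals and black ticks the ratio of the median gene. In micrometastasis (blue) Cd14 and Clec7a lie left of the median gene in mature neutrophil-like, monocyte-like and lesion macrophage-like cells, while Clec4e lies right of 1 in clusters 0 and 2, at 1.15 and 1.07.

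In macrometastasis the whole-library CPM ratios of Cd14 and Clec7a lay closer to 1 than in micrometastasis. Those of Trem1 and Clec4e lay further from it, but not on the 2 other scales below. Trem1 was 536 CPM in Ctrl against 417 in Tim3-KD (0.779, 0.765 to 0.793), Cd14 1205 and 1027 CPM (0.852, 0.843 to 0.862), Clec4e 511 and 459 CPM (0.898, 0.882 to 0.914) and Clec7a 195 and 219.7 CPM (1.13, 1.10 to 1.16). None of the 4 was past 1.5-fold in either direction, where 23.3% of genes were lower and 4.54% higher. The median gene stood at 0.834 (log2 shift -0.26). Relative to it Trem1 was at 0.934, Cd14 at 1.02, Clec4e at 1.08 and Clec7a at 1.35, so Trem1 alone was below it. In micrometastasis Trem1 and Clec4e lay further from the median gene, at 1.13 and 1.25. With every cell counted alike, Cd14 (1.06) and Clec4e (1.15) also turned above 1, Clec7a was at 1.43 and Trem1 at 0.999. On that scale Trem1 and Clec4e were close to their micrometastasis values.

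Clec7a in mature neutrophil-like cells of macrometastasis was higher in Tim3-KD, at 565 CPM in 2013 cells against 337 CPM in 1649 Ctrl cells (1.68, 1.61 to 1.74), although it was not higher within clusters 0 and 1, the clusters with at least 50 cells in both libraries. In cluster 0 it was 1299 CPM in Ctrl and 1005 in Tim3-KD (0.774, 0.733 to 0.818), and in cluster 1 it was 225 and 208 CPM (0.924, 0.865 to 0.986). Cluster 2 had 384 CPM in 26 Ctrl cells and 333 CPM in 138 Tim3-KD cells. Cluster 0, the cluster with most Clec7a, grew from 189 to 834 cells, and cluster 1 fell from 1434 to 1041. Trem1 (1709 and 1591 CPM, 0.931), Cd14 (3128 and 2888 CPM, 0.923) and Clec4e (1576 and 1663 CPM, 1.06) differed less in the class. At the level of all genes in the class 9.75% were lower and 8.90% higher by at least 1.5-fold, and Clec7a was the single receptor gene past that limit. With the cluster shares of the Ctrl library applied to both libraries, the whole-library ratio of Clec7a in macrometastasis was 0.878 in place of 1.13, and in micrometastasis 0.590 in place of 0.350. Under the same weighting Clec4e in micrometastasis was at 1.15, Trem1 at 0.911 and Cd14 at 0.687, and in macrometastasis Clec4e was at 0.924, Trem1 at 0.979 and Cd14 at 1.09.

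Monocyte-like cells of macrometastasis had Trem1 at 199 and 85.6 CPM (0.431, 0.385 to 0.484), Clec4e at 359 and 202 CPM (0.562), Clec7a at 462 and 259.9 CPM (0.562) and Cd14 at 1168 and 831 CPM (0.711). The 3 genes past 1.5-fold, Trem1, Clec4e and Clec7a, stood in a class in which 34.0% of genes were lower and 14.1% higher. Relative to the median gene of the class (0.800) Trem1 was at 0.539. Clec4e (0.702) and Clec7a (0.703) were no longer past 1.5-fold on that scale. Here too the clusters differed, since cluster 10 had 7 Ctrl and 119 Tim3-KD cells and cluster 25 had 49 and 5. Within cluster 5 (148 and 217 cells) Trem1 was at a ratio of 0.886 (0.749 to 1.05), Cd14 at 1.03 (0.978 to 1.09), Clec4e at 1.18 (1.05 to 1.32) and Clec7a at 0.833 (0.764 to 0.908). Within cluster 23 (62 and 65 cells) Trem1 was at 0.910 (0.712 to 1.16), Cd14 at 1.23 (1.13 to 1.34), Clec4e at 1.08 (0.909 to 1.28) and Clec7a at 0.814 (0.654 to 1.01). Lesion macrophage-like cells (108 and 157) had more Cd14 in Tim3-KD, at 1149 and 1581 CPM (1.38, 1.30 to 1.46), more Clec4e (146 and 200.2 CPM, 1.37) and more Trem1 (59.5 and 87.3 CPM, 1.47), and Clec7a at 396 and 349.7 CPM (0.884, 0.793 to 0.985). Endothelial-like cells also had more Trem1 (60.6 and 93.9 CPM) and Clec4e (41.0 and 144 CPM) in Tim3-KD. B-like cells had 11.9 and 4.32 CPM of Trem1 and 11.6 and 9.72 CPM of Clec4e. T-like cells had 19.1 and 5.47 CPM of Trem1 and 13.2 and 5.24 CPM of Clec4e. The part of background in the higher Trem1 and Clec4e of lesion macrophage-like cells was not tested. In Kupffer-like cells Cd14 was at 429.7 and 515 CPM (1.20) and Clec7a at 238 and 205 CPM (0.862).

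Adjacent tissue showed lower Cd14, Clec4e and Clec7a with Tim3-KD, in a pair of libraries whose cell make-up differed widely. Clec4e was at 461 CPM in Ctrl against 38.4 in Tim3-KD (0.0833, 0.0736 to 0.0939), Cd14 at 657 and 143 CPM (0.217, 0.204 to 0.231) and Clec7a at 208 and 149 CPM (0.717, 0.671 to 0.765). Cd14 and Clec4e were lower by at least 1.5-fold, as were 13.5% of genes, and 50.2% of genes were higher, the median gene by a ratio of 1.51 (log2 shift 0.59). Clec7a was past 1.5-fold too relative to the median gene (0.476), with CPM over the genes of the matrix (0.477) and with every cell counted alike (0.322). Mature neutrophil-like cells numbered 572 in Ctrl and 19 in Tim3-KD, monocyte-like cells 258 and 20, and Kupffer-like cells 31 and 106. No myeloid class held 50 cells in both libraries, so no ratio within a class was taken. The 106 Kupffer-like cells of Tim3-KD had 311 CPM of Cd14, 384 CPM of Clec7a and 0.649 CPM of Clec4e (1 UMI).

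Between sites in the Ctrl libraries the genes moved apart. Over whole libraries Cd14 was higher than in adjacent tissue, by a ratio of 1.57 in micrometastasis and 1.84 in macrometastasis, or 1.22 and 1.20 with CPM over the genes of all 3 matrices. Clec4e (0.894 and 1.11) and Clec7a (1.36 and 0.936) had no common direction there, and with every cell counted alike Clec7a was lower at both sites (0.738 and 0.423), as was Clec4e (0.585 and 0.615). Cd14 was higher in micrometastasis than in adjacent tissue in mature neutrophil-like and in monocyte-like cells. In neutrophil precursor-like cells it was slightly lower, at 289.7 against 313 CPM (0.925, 0.875 to 0.977). Mature neutrophil-like cells had 1924 CPM in adjacent tissue, 2664 in micrometastasis (ratio to adjacent tissue 1.38, 1.35 to 1.42) and 3128 in macrometastasis (1.63, 1.59 to 1.67). Monocyte-like cells had 644, 1334 (2.07) and 1168 CPM (1.81). Their clusters differed between the sites, with 158, 599 and 148 cells in cluster 5 and 94, 93 and 7 in cluster 10, beside 62 and 49 cells of clusters 23 and 25 in macrometastasis. In cluster 5 alone Cd14 was 1007, 1569 and 1236 CPM, and in cluster 10 it was 424 and 688 CPM in adjacent tissue and micrometastasis. Clec4e and Clec7a were lower than in adjacent tissue in mature neutrophil-like cells and higher in monocyte-like cells. In mature neutrophil-like cells Clec4e was 2330.2 CPM in adjacent tissue against 1494 in micrometastasis (0.641) and 1576 in macrometastasis (0.676), and Clec7a was 1035, 513 (0.496) and 337 CPM (0.326). In monocyte-like cells Clec4e was 190.5, 259 (1.36) and 359 CPM (1.88), and Clec7a 251, 456 (1.81) and 462 CPM (1.84). The cluster make-up of the neutrophils differed too, cluster 0 holding 457 of 572 mature neutrophil-like cells in adjacent tissue, 677 of 1481 in micrometastasis and 189 of 1649 in macrometastasis. Within cluster 0 Clec7a was 1404, 959 and 1299 CPM at the 3 sites and Clec4e 2916, 2084 and 2116 CPM. Cd14 in cluster 0 was lower in macrometastasis (2451 CPM) than in micrometastasis (2837 CPM), and cluster 1 of macrometastasis had 3242 CPM. Lesion macrophage-like cells had less Clec7a in macrometastasis than in micrometastasis (396 and 1031 CPM, 0.384, 0.352 to 0.417). In the Tim3-KD libraries this ratio was 0.872 (0.777 to 0.980). In mature neutrophil-like cells it was 0.658 in Ctrl and 2.07 in Tim3-KD. Macrometastasis differs from the other sites in day as well as in tumour size, and these cannot be told apart.

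The genes with the most similar pattern across classes and libraries were found by Pearson correlation of log2(CPM + 10), as a description without a test, since the units share libraries. Over 49 units Trem1 was most like Fbxl5, Clec4e and Il1r2 (r = 0.95 each), then Csf3r, the receptor for the granulocyte growth factor, and Slc16a3, a lactate transporter (0.94 each). Clec4e over 59 units was most like Ccr1, a chemokine receptor (0.94), Slc16a3 and Csf3r (0.92 each), Mmp8 and Il1r2 (0.91 each). Cd14 had looser neighbours, with Tnfaip2 at 0.87, Gk at 0.85, Csf3r at 0.84, Mefv at 0.83 and a feature shared by the chemokine genes Cxcl2 and Cxcl3 at 0.82. Clec7a was most like Gm5150 (0.96), Cd300ld (0.89), Ccl6 (0.88), and Nlrp3, the inflammasome sensor, and Ccrl2 (0.87 each). Among the receptors themselves Trem1 and Clec7a had an r of 0.52 and Clec4e and Clec7a one of 0.56, while Cd14 was at 0.74 with Trem1, 0.79 with Clec4e and 0.81 with Clec7a.

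Genes of the same pathways were counted in 4 lists. Of 17 adaptors and kinases 4 were in the micrometastasis matrix, and Tyrobp, Fcer1g, Syk and Card9 were not among them. Over all cells Malt1 (59.7 and 34.2 CPM, 0.574) and Lat2 (35.4 and 21.6 CPM, 0.610) were lower by at least 1.5-fold with Tim3-KD and none of the 4 was higher. Of 14 partner and related receptors 8 were lower and none higher, beside 37.5% of all genes lower and 2.70% higher, with a median log2 ratio of -0.86 against -0.43 for all genes. Among them were the partners of CD14, Tlr4 (19.9 and 10.7 CPM, 0.540) and Ly96 (20.1 and 11.2 CPM, 0.558). Clec4d, the partner lectin of Mincle, was at 171 and 127 CPM (0.743). Pglyrp1, a ligand of TREM1, was at 1354 and 1421 CPM (1.05), and Anxa1, the other ligand measured, at 2156 and 2622 CPM (1.22). Of 18 target and inhibitor genes 11 were lower and 1 higher (median log2 ratio -0.78), beside the same 37.5% of all genes lower and 2.70% higher. Il1b was at 1609.7 and 558 CPM (0.347) and Ccl4 at 572 and 265 CPM (0.463), while Nfkbia, the NF-kB inhibitor, was at 1065 and 1127 CPM (1.06), and Tnf was the gene that was higher (47.0 and 79.5 CPM, 1.69).

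Inside the classes of micrometastasis, more target genes and partner receptors were lower than higher in neutrophils and monocytes, and no ligand was past the limit in these cells. In mature neutrophil-like cells, where 11.8% of all genes were lower and 4.67% higher, 8 of 16 target genes were lower and 1, Tnf, was higher (median log2 ratio -0.64 against -0.11 for all genes), with Il1b at 5647 and 2150.1 CPM (0.381) and Nfkbia at 2368 and 2662 CPM (1.12). Of 11 receptors 3 were lower (median -0.41), Tlr4 among them at 40.8 and 24.1 CPM (0.590). Of 4 adaptors and kinases none was lower and 1 higher. Cluster 0, with Il1b among its leading genes, held 677 Ctrl and 442 Tim3-KD cells of this class. Monocyte-like cells, with 27.7% of all genes lower and 10.0% higher, had 12 of 16 target genes lower and 1 higher, and 11 of 13 receptors lower, both lists at a median of -1.22 against -0.22 for all genes. Of the adaptors and kinases 1 of 4 was lower there. The class had 599 Ctrl and 436 Tim3-KD cells in cluster 5, and 93 and 371 in cluster 10. The lists were not counted within clusters, so a change in cluster numbers cannot be told apart from a change per cell. In lesion macrophage-like cells, where 27.3% of all genes were higher and 14.8% lower, 12 of 16 target genes were higher and 1 lower (median 0.80 against 0.14), while Clec7a and Cd14 were lower. Pglyrp1, a granule gene of neutrophils, was also higher in these cells (17.8 and 60.1 CPM, 3.38), and the part of neutrophil RNA in the higher values was not tested. In macrometastasis the mature neutrophil-like cells had 1 target gene of 15 lower and 3 higher (median 0.075 against -0.12), beside 9.75% and 8.90% of all genes. Of them, 189 Ctrl and 834 Tim3-KD cells were in cluster 0. The monocyte-like cells there had 10 of 14 lower (median -0.87 against -0.32), beside 34.0% of all genes, with 7 Ctrl and 119 Tim3-KD cells in cluster 10.

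An antisense processed pseudogene overlaps Trem1, and whether reads were counted by strand was not given in the sources used here, so UMIs of the pair cannot be told apart. The files carry Clec7a as a polymorphic pseudogene, the class the annotation gives it, and its UMIs are those of this feature.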

How the data were processed

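CD45+ liver cells of 6 libraries were analysed, 1 library per group. The authors trimmed reads with Trim Galore (0.4.3), mapped them with STAR (2.7.7a) to GRCm38, took UMIs from introns as well as exons, and removed doublets with scrublet. The deposited values are scaled scores, capped at 10: the UMIs of a cell per 10000, log-transformed, with the total UMIs regressed out, each gene divided by its SD. Scaling was done per site, over its pair of libraries. The tests had been planned for UMI counts, so the scores were inverted to whole UMIs (within 0.05 of a whole number). No value of the 4 genes was at the cap. The matrices hold 10.5% to 20.2% of each library's UMIs, and total UMIs run from 7086531 to 79971797 per library. CPM refer to all genes of a cell.

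The cells were clustered on the 1642 genes of all 3 matrices, without the 4 receptor genes and the pathway lists, by Leiden clustering (leidenalg 0.10.2, scanpy 1.11.5, Python 3.11.15). Classes were named from markers, so they may hold other cells than the classes of the study. No further cells were removed. Intervals are exact Poisson (CPM), exact binomial (shares) and exact conditional (ratios), and cover counting error only. A gene counted as lower or higher when its ratio was past 1.5-fold, among genes with at least 100 UMIs over both libraries. With 1 library per group no test was made, and the 3 sites, which differ in tissue and day, were not treated as replicates of each other. The named genes were the 4 receptor genes, the genes of the pathway lists with the highest UMIs and, by role, others of those lists, and for each receptor the 5 genes of highest Pearson r. The genes and lists were chosen with earlier results of these data known. Alternatives changed the denominator, the weighting of cells, shallow cells, doublets, the clustering, thinning, fold and minimum. The ratios at the class or cluster mix of Ctrl and relative to the median gene were added after seeing the data. The inversion and the counting of ratios were tested on simulated data. Locations come from GENCODE vM21 and promoters from RefSeq.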

Additional observations from a re-analysis of the deposited data

Results flagged for a closer look

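Clec7a differed in direction between the sites in Tim3-KD over Ctrl. Over all cells its ratio was 0.350 in micrometastasis and 1.13 in macrometastasis. In mature neutrophil-like cells it was 0.531 in micrometastasis and 1.68 in macrometastasis. Each group had 1 library, so the difference between the sites was not tested. Within cluster 0 of these cells the ratio was below 1 at both sites, at 0.631 and 0.774.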

How the results depend on the processing

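Ctrl and Tim3-KD libraries share a site but no replicate number, and a pairing over the 3 sites was not run. With CPM taken over the genes of the matrix, the whole-library ratios (Tim3-KD over Ctrl) became 0.999 for Trem1, 0.677 for Cd14, 1.10 for Clec4e and 0.416 for Clec7a in micrometastasis, 0.822, 0.900, 0.948 and 1.19 in macrometastasis, and 0.145, 0.0555 and 0.477 for Cd14, Clec4e and Clec7a in adjacent tissue. In mature neutrophil-like cells of micrometastasis they became 0.918, 0.710, 1.11 and 0.611. As a mean over cells they were 0.998, 0.717, 1.14 and 0.502 in micrometastasis, 0.999, 1.06, 1.15 and 1.43 in macrometastasis, 0.122, 0.0687 and 0.322 in adjacent tissue, and 0.640 for Cd14 in mature neutrophil-like cells of micrometastasis. At the class mix of the Ctrl library they were 0.867, 0.627, 0.995 and 0.475 in micrometastasis and 0.918, 0.951, 1.03 and 1.25 in macrometastasis. At its cluster mix they were 0.911, 0.687, 1.15 and 0.590, and 0.979, 1.09, 0.924 and 0.878. Relative to the median gene they were 1.13, 0.769, 1.25 and 0.473 in micrometastasis, 0.934, 1.02, 1.08 and 1.35 in macrometastasis, and 0.144, 0.0553 and 0.476 in adjacent tissue. These last 3 settings were chosen after seeing the data. Without cells of a doublet score over 0.15 they were 0.734, 0.813, 0.851 and 1.08 in macrometastasis, 0.911 for Clec4e in micrometastasis and 0.786 for Clec7a in adjacent tissue. Without cells under 3000 UMIs Cd14 in micrometastasis was at 0.562.

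In mature neutrophil-like cells of micrometastasis, clustering with the listed genes left in gave 0.766 for Trem1, 0.592 for Cd14, 0.907 for Clec4e and 0.486 for Clec7a. A resolution of 2 gave 0.759, 0.589, 0.896 and 0.484, and clustering each site alone 0.718, 0.555, 0.835 and 0.437. Between the Ctrl libraries, CPM over the genes of all 3 matrices gave micrometastasis over adjacent tissue ratios of 1.22 for Cd14, 0.693 for Clec4e and 1.05 for Clec7a, and macrometastasis over adjacent tissue ratios of 1.20, 0.725 and 0.612. The mean over cells gave 1.35, 0.585 and 0.738, and 1.47, 0.615 and 0.423. The cause of these shifts was not tested.

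Of the Tim3-KD over Ctrl values above and their other alternatives 97 of 110 kept their direction, and of those in other classes 215 of 220 did. Of all alternatives of these main values, those between sites included, 85 moved by more than counting error and 37 did not. Past 2-fold in place of 1.5-fold, 484 genes in place of 1000 were lower and 20 in place of 72 higher in micrometastasis, and 280 in place of 615 and 60 in place of 120 in macrometastasis. Of the 5 genes most like each receptor, 3 or 4 remained with Spearman rho or with 1 CPM added in place of 10. With 1 pool of mice per group, the spread between mice is unknown, and a ratio that counting error separates from 1 may still lie within it.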
